A study of Rattus norvegicus with 12 samples.

Results

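Proliferating cell genes are the genes that a cell transcribes only, or mostly, while it copies its DNA and divides, and here they were followed in rat lung exposed to cigarette smoke (CS) and lipopolysaccharide (LPS). A list of 44 such genes was used, and each gene was represented by its most intense probe among those that passed the filter, a signal well above background on every array of 1 group or more. Of the 44 members, 37 had a probe whose RefSeq accession carried the symbol, and 35 passed the filter and were tested, out of 21239 probes with 11146 different symbols that were tested in all. Mki67, Top2a, Bub1b, Cenpe, Mcm3, Mcm5 and Melk had no matched probe, and the probes of Ccne2 and Hmmr did not pass the filter. The well-known markers Mki67, whose protein is the Ki-67 antigen of dividing nuclei, and Top2a, the topoisomerase that untangles DNA before mitosis, were therefore not measured under this rule.

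The RNA of 12 rat lungs was hybridized to Agilent arrays in 1 colour, with 3 rats in each of 4 groups. All were male Sprague-Dawley rats aged 8 to 12 weeks, and RNA came from the left upper lobe, so the cells of a whole lobe were measured together. The control rats breathed air and were given saline on the same schedule. The CS+LPS rats were exposed to smoke until day 30 and received LPS into the trachea on days 5 and 19, and were killed 24 h after the end of smoking. The CS+LPS+NaHS rats additionally received sodium hydrosulfide, a salt that releases H2S, and the CS+LPS+PPG rats received DL-propargylglycine, which blocks the H2S-forming enzyme CTH. Both were injected into the abdomen before each exposure. Drug and exposure were given together, so the design holds no group with NaHS or PPG alone.

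A dividing cell passes through stages that use different parts of this gene list. Genes for DNA copying (the MCM helicase, the clamp Pcna, the enzymes that make nucleotides) are switched on by E2F factors as the cell enters S phase, and genes for chromosome separation (cyclin B, Cdk1, mitotic kinases, kinesins) follow in G2 and mitosis, through promoters that carry CCAAT boxes and a short element called CHR. In a resting adult lung few cells divide, and epithelial, endothelial, stromal and immune cells can each enter the cycle after injury. In a bulk sample, fewer dividing cells and less RNA per dividing cell cannot be told apart.

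The promoter letters are given here as a description of the members. They were not set against how alike the members were over the arrays. Of the 44 members, 35 had a promoter in the RefSeq table of build GRCr8, and the 250 bases before the start were searched on both strands for 6 motifs. CCAAT was in 26 of these 35 promoters (74.3%) and in 34% of all 33469 promoters of the same length. A CHR in the letters TTTGAA or TTCGAA was in 15 of 35 (42.9%) against 17.4% of all promoters. An E2F site in the letters TTTCCCGC, TTTGGCGC or TTTCGCGC was in 6 of 35 (17.1%) against 1.41%, and these were Cdk1, Mcm2, Mcm5, Mcm6, Mcm7 and Tyms. At least 2 CCAAT boxes were in 19 promoters (54.3%) against 9.42%. None of the 6 motifs was in those of Aurka, Bub1, Ccne1, Kif2c, Melk and Tk1. The windows of Aurka, Birc5, Kif11, Kif23 and Ttk lay with all 250 bases inside the gene as annotated. The 35 promoters included those of Bub1b, Cenpe, Hmmr, Mcm3, Mcm5, Melk, Mki67 and Top2a, members not tested on the arrays.

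The promoters of a mitotic cyclin, a mitotic degradation factor and a replication helicase subunit follow, with the single E2F match of Tyms, the member with the smallest p. They were picked after the values were seen, the first 3 from members whose windows lay outside the annotated gene. The windows of Bub1, Cdca3, Kif20a, Pcna, Plk1 and Rrm1 also lay outside it and are not printed. Bub1 held 0 motifs, Pcna and Plk1 1 each, Rrm1 2, and Cdca3 and Kif20a 3 each. The 4 printed stretches are written 5′ to 3′ on the minus strand, which is the strand of the gene. Capitals mark CCAAT (or ATTGG, its other strand), TTTGAA and the E2F letters.
Ccnb1, chr2:33655226-33655475: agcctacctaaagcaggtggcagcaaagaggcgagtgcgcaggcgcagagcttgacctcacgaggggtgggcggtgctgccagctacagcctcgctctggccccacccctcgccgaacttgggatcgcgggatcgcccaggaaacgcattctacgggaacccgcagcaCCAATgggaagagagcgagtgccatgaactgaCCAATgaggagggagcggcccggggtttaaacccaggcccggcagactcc
Cdc20, chr5:137255800-137256049: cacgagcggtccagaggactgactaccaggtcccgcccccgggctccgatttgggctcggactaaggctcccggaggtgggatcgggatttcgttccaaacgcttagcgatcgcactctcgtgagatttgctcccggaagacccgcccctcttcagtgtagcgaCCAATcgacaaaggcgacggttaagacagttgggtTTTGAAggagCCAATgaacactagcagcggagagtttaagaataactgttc
Mcm6, chr13:42404353-42404602: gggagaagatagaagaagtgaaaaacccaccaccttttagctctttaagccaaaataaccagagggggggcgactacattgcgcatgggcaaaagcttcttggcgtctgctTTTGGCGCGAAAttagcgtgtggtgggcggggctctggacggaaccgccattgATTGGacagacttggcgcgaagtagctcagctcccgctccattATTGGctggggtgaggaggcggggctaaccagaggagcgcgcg
Tyms, chr9:120776102-120776131: aaggtgcgggtTTTGGCGCcgactacactg

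The Ccnb1 promoter held CCAAT beginning 82 and 50 bases before the start, and that of Cdc20 held CCAAT at 86 and 41 bases with TTTGAA between them at 51. In Mcm6, TTTGGCGC at 139 bases overlapped TTTCGCGC of the other strand, and CCAAT stood at 86 and 43 bases, each on the other strand. In Tyms, TTTGGCGC began 37 bases before the start, within the gene as annotated. These matches describe letters and are no measure of binding.

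The arrays differed in ways that bear on the values below. They were scanned on 2 slides, slide 1 with control replicates 1 and 2 and all NaHS and PPG arrays, and slide 2 with control replicate 3 and all CS+LPS arrays. CS+LPS therefore cannot be told apart from slide 2 except through control replicate 3, and that array stood apart. Its 75th percentile of processed signal was 1229, against 2110 to 3261.5 on the other 11 arrays, and its correlation with the others over all tested probes was 0.936 to 0.957, against at least 0.975 between any other arrays. It gave the highest signal of all 12 arrays for 32.6% of the tested probes, and among lists of lung cell markers those of club and ciliated cells were highest on it. Alveolar type 2 cells were present on every array, with Sftpc, the gene for surfactant protein C, at 18.19 to 19.42 on the log2 scale. All values below are log2 signals after each array was set to the same 75th percentile, so a difference of 1 is a fold of 2.

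The proliferation genes differed more between rats of 1 group than between groups. The mean of the 35 members, each taken as its deviation from its own mean over 12 arrays, was 0.08, -0.17 and -0.17 in the control rats. It was -0.07, 0.35 and -0.13 in the CS+LPS rats, -0.10, 0.18 and -0.16 in the NaHS rats, and -0.19, -0.28 and 0.67 in the PPG rats. The 4 groups overlapped. The group means were -0.09 ± 0.15, 0.05 ± 0.26, -0.03 ± 0.18 and 0.07 ± 0.52 (SD, n = 3), so the groups spanned 0.15 while the PPG arrays alone spanned 0.95. Of the variance of this mean over 12 arrays, 5.57% lay between groups. For single members the median share between groups was 20.4%, against 42.6% for all tested probes.

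**Figure D1:**
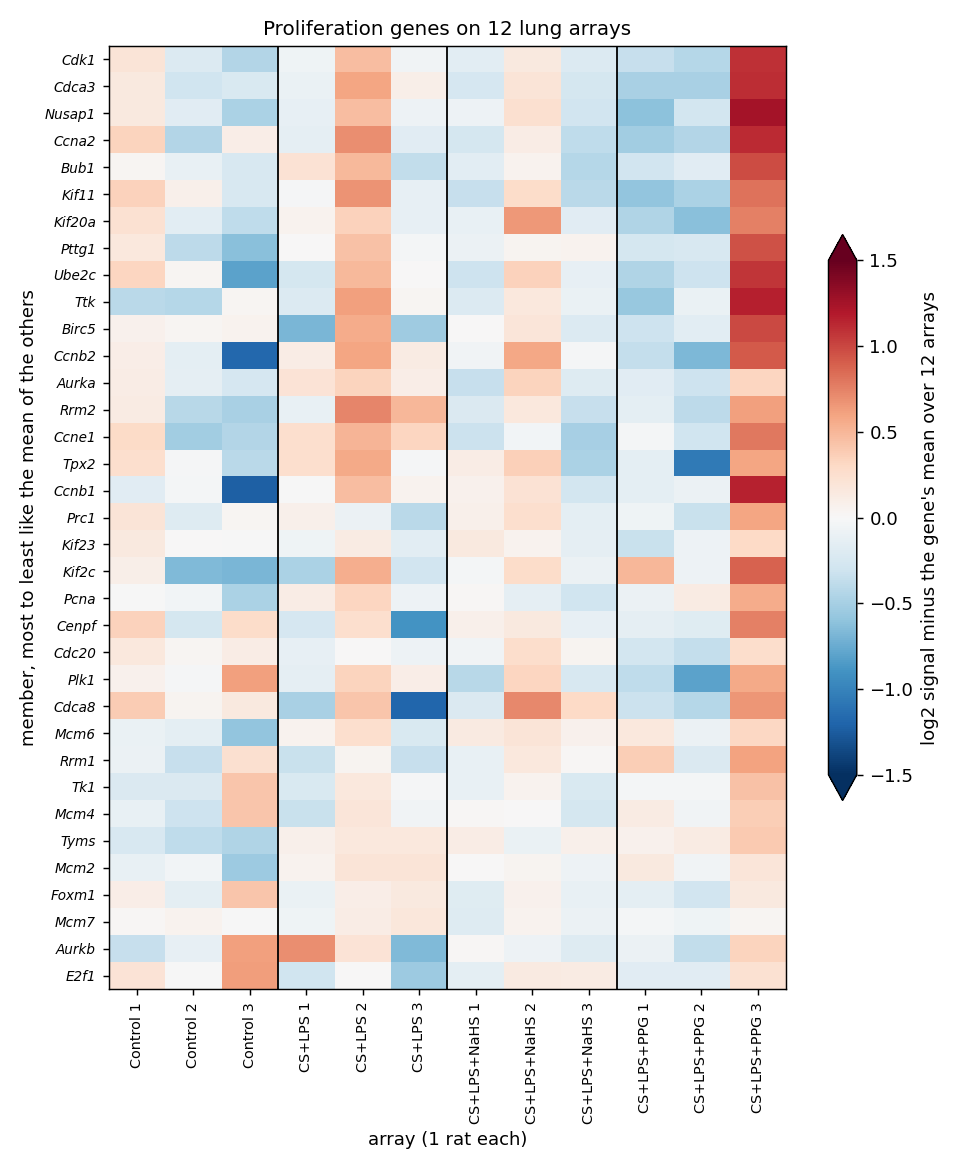
Log2 signal of the 35 tested members (rows) on the 12 arrays (columns, 1 rat each), as the deviation from each member's mean over 12 arrays; red is higher and blue lower, and the members are ordered by their correlation with the mean of the other members. CS+LPS+PPG replicate 3 is the highest array for 24 of 35 members, and CS+LPS replicate 2 is above the member's own mean for 34.

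PPG replicate 3 had the highest signal of all 12 arrays for 24 of 35 members (68.6%), while it was the highest for 17.5% of all tested probes. It lay above the mean of its group's other arrays for 35 of 35 members, against 52.0% of all probes. The median difference was 0.90 and the range 0.08 to 1.70, and it passed 1 (a fold of 2) for 16 members against 1.90% of all probes. Nusap1, which bundles spindle microtubules, differed most at 1.70, followed by Ccna2, the cyclin of S and G2, at 1.60, and Cdca3, which targets the mitosis inhibitor Wee1 for degradation, at 1.59. The helicase subunits Mcm7 (0.08) and Mcm2 (0.13) and Tyms (0.29) differed least. CS+LPS replicate 2 lay above the mean of the other CS+LPS arrays for 35 of 35 members, against 50.5% of all probes. The median difference was 0.43 (all probes 0.0042). It was the highest of the 3 for 29 members, a count with no share of all probes beside it. The difference passed 1 for 2 members, against 1.94% of all probes. These were Birc5 (1.17) and Cdca8 (1.25), which belong to the chromosomal passenger complex. Cdca8 was weak, well above background on 10 of 12 arrays, with 4.93, 5.83 and 4.23 in CS+LPS. PPG replicate 3 and CS+LPS replicate 2 were singled out after their values were seen, so the differences are descriptions without a test.

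Cdk1, the kinase that drives mitosis, had the pattern most like the mean of the other members (r = 0.97 over 12 arrays). Its signals were 11.28, 10.88 and 10.65 in the control rats, 11.03, 11.55 and 11.03 in the CS+LPS rats, 10.92, 11.23 and 10.88 in the NaHS rats, and 10.73, 10.66 and 12.17 in the PPG rats. The 4 groups overlapped, and PPG replicate 3 was above every other array. Against control, Cdk1 differed by 0.26 in CS+LPS, 0.07 with NaHS and 0.25 with PPG, each with an SE of 0.36 (limma, adjusted p = 0.64, 0.93 and 0.66). Without PPG replicate 3 the PPG difference was -0.24.

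Cyclin B1 (Ccnb1), the partner of Cdk1 in mitosis, gave 7.74, 7.88 and 6.69 in control, 7.91, 8.37 and 7.96 in CS+LPS, 7.97, 8.13 and 7.64 with NaHS, and 7.77, 7.83 and 9.07 with PPG. All 3 CS+LPS arrays lay above all control arrays, the other groups overlapped control, and the lowest value of all was control replicate 3. The difference of CS+LPS from control was 0.64 ± 0.38 (SE, limma adjusted p = 0.30), and that of PPG was 0.78 ± 0.38 (adjusted p = 0.20). Without control replicate 3 these were 0.27 and 0.41, and without PPG replicate 3 that of PPG was 0.36. Ccnb2, the other B-type cyclin on the list, also had all 3 CS+LPS arrays above all control arrays. Its difference there was 0.68 ± 0.42 (SE, limma adjusted p = 0.32), and its lowest array was control replicate 3, at 6.05. Without that array the difference was 0.30. With PPG, Ccnb2 differed from control by 0.37 (limma, adjusted p = 0.58), and by -0.02 without control replicate 3.

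Cyclin E1 (Ccne1), which acts earlier, at the entry into S phase, gave 7.62, 6.82 and 6.90 in control and 7.59, 7.85 and 7.66 in CS+LPS. It gave 7.02, 7.29 and 6.83 with NaHS and 7.30, 7.04 and 8.13 with PPG. The 3 NaHS arrays lay below the 3 CS+LPS arrays, and all other pairs of groups overlapped. NaHS against CS+LPS was the member's widest gap, -0.65 ± 0.29 (SE, unadjusted p = 0.046), and it did not pass after adjustment over all probes (limma, adjusted p = 0.48). NaHS and CS+LPS were on different slides, and the part of the slide in this gap cannot be told apart.

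Tyms was the member with the clearest difference between groups. It encodes thymidylate synthase, which makes the thymidine nucleotide for DNA copying, and its annotated gene lies at chr9:120760057-120776149 (GRCr8, minus strand). Its signals were 7.47, 7.33 and 7.26 in the control rats, 7.78, 7.87 and 7.87 in CS+LPS, 7.83, 7.62 and 7.78 with NaHS, and 7.78, 7.84 and 8.10 with PPG. The 9 exposed arrays all lay above the 3 control arrays, and the 3 exposed groups overlapped each other. Tyms rose by 0.55 ± 0.13 (SE) in PPG against control, a fold of 1.47, and this was the only member difference with an adjusted p under 0.05 (limma, 0.040). Against control it differed by 0.49 in CS+LPS (adjusted p = 0.071) and by 0.39 with NaHS (adjusted p = 0.19), at the same SE. Among the exposed groups it differed by at most 0.17, with SE 0.13. The call in PPG was narrow: it was lost in 19 of 26 alternatives, with adjusted p between 0.033 and 0.19, and leaving out control replicate 3 gave 0.51 with an adjusted p of 0.060.

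Few members were called in any comparison. By a fold of at least 2 with an unadjusted p under 0.05, 0 of 35 members were called in each of the 6 comparisons. By the same rule, 4.6% of all tested probes were called in CS+LPS against control, 2.58% in NaHS and 4.3% in PPG against control. The share was 1.94% in NaHS and 2.14% in PPG against CS+LPS, and 0.499% in NaHS against PPG. At 4.6%, fewer than 2 calls correspond to 35 probes, so a count of 0 is near the background. The methods' t-test with the same fold also called 0 members in each comparison.

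By an adjusted p under 0.05 at any fold, Tyms in PPG against control was the single call (1 of 35), where 5.2% of all probes passed. In the other comparisons 0 of 35 members passed with limma. The share of all probes that passed was 2.1% in CS+LPS and 0.122% in NaHS against control, 0.739% in NaHS and 0.584% in PPG against CS+LPS, and 0% in NaHS against PPG. With the methods' t-test after Benjamini-Hochberg adjustment, 0 members passed in each comparison. No share of all probes is given for that test, so this 0 is no result about the members.

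At an unadjusted p under 0.05 in limma, 3 of 35 members passed in CS+LPS against control, where 25.4% of all probes did. The count was 2 in NaHS against control (17.6% of probes), 3 in PPG against control (29.6%), 1 in NaHS against CS+LPS (10.1%), and 0 in PPG against CS+LPS (10.8%) and in NaHS against PPG (8.87%). The members thus passed at a lower share than the array as a whole in each comparison. Their errors were also wider, with a median SE of 0.32 against 0.20 for all probes.

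The median member lay above control by 0.22 or less in each exposed group, within the spread between rats. In CS+LPS against control 23 of 35 were higher, with a median difference of 0.22 against -0.06 for all probes. In PPG against control 24 were higher, with a median of 0.15 (all probes -0.00050), and in NaHS against control 20 were higher, with a median of 0.03 (all probes 0.02). The median was -0.13 for NaHS against CS+LPS, 0.01 for PPG against CS+LPS and -0.13 for NaHS against PPG. Without PPG replicate 3 the median was -0.21 for PPG against control, -0.28 for PPG against CS+LPS and 0.21 for NaHS against PPG. The comparisons with control share the same 3 control rats. Without CS+LPS replicate 2 the median was 0.03 for CS+LPS against control and 0.0092 for NaHS against CS+LPS, and without NaHS replicate 2 it was -0.10 for NaHS against control. Without control replicate 3 the medians against control were 0.14 in CS+LPS, -0.0062 with NaHS and 0.12 with PPG.

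**Figure D2:**
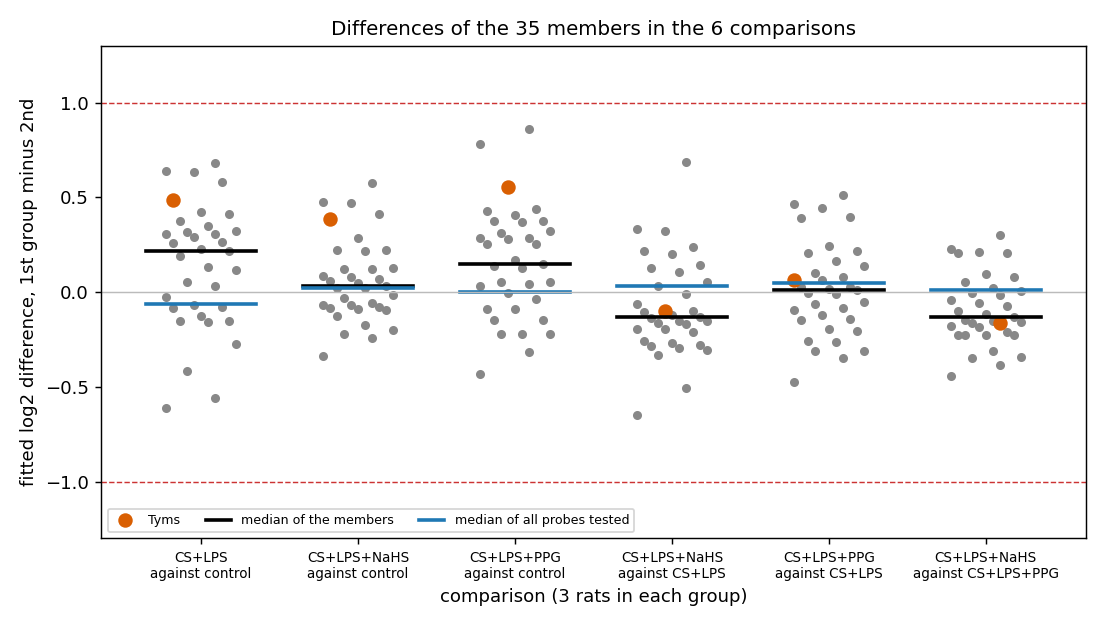
Fitted log2 difference of each of the 35 members (grey dots; Tyms in orange) in the 6 comparisons, 3 rats in each group, with the median of the members (black line) and of all tested probes (blue line); dashed lines mark a fold of 2. No member reaches the dashed lines, and the medians of the members lie between -0.13 and 0.22.

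Among the genes that license and copy DNA, the 5 tested members were Mcm2, Mcm4, Mcm6 and Mcm7, which are subunits of the helicase that opens the double strand, and Pcna, the clamp that holds the polymerase. Their role mean ranged over the arrays from -0.24 in control replicate 3 to 0.29 in PPG replicate 3, a smaller range than for the cyclins with Cdk1, at -0.63 to 1.01. Mcm2 gave 9.48, 9.55 and 9.04 in control, 9.65, 9.78 and 9.78 in CS+LPS, 9.60, 9.63 and 9.51 with NaHS, and 9.73, 9.54 and 9.77 with PPG. The CS+LPS arrays lay above all control arrays, with a difference of 0.38 ± 0.15 (SE, unadjusted p = 0.027, limma adjusted p = 0.15), and control replicate 3 was the lowest array. Without it the difference was 0.22.

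Mcm6 was higher than control on all 3 arrays with NaHS (0.41, adjusted p = 0.27) and on all 3 with PPG (0.41, adjusted p = 0.15), each at an SE of 0.18 in limma. The lowest PPG array (7.95) and the highest control array (7.94) nearly met. Its lowest array was again control replicate 3, at 7.44 against 7.81 to 8.35 on the others, and without it the differences were 0.26 with NaHS and 0.25 with PPG. Pcna gave 12.30, 12.27 and 11.84 in control, 12.43, 12.63 and 12.24 in CS+LPS, 12.33, 12.17 and 12.01 with NaHS, and 12.23, 12.43 and 12.88 with PPG. The groups overlapped, and the difference from control was 0.29 in CS+LPS, 0.03 with NaHS and 0.37 with PPG at an SE of 0.20 (adjusted p = 0.35, 0.94 and 0.23).

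The nucleotide enzymes other than Tyms were Tk1, the salvage kinase for thymidine, and Rrm1 and Rrm2, the subunits of ribonucleotide reductase. Rrm2, whose level follows S phase, was higher by 0.63 ± 0.30 (SE) in CS+LPS than in control (limma, adjusted p = 0.21), and the groups overlapped. A further probe of Rrm2 differed by 0.74 in the same comparison (unadjusted p = 0.023).

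The 2 transcription factors on the list, each read from its most intense probe, had fitted differences from control below 0 in each exposed group, and the other E2f1 probe did not share this. E2f1, which switches on S phase genes, gave 10.48, 10.27 and 10.91 in control, 9.98, 10.28 and 9.72 in CS+LPS, 10.13, 10.41 and 10.40 with NaHS, and 10.11, 10.11 and 10.50 with PPG. CS+LPS and control nearly separated, with 1 CS+LPS array at the level of the lowest control array. The difference was -0.56 ± 0.20 (SE, unadjusted p = 0.019, limma adjusted p = 0.13), and without control replicate 3 it was -0.38. The other E2f1 probe gave -0.45 in this comparison (unadjusted p = 0.10), -0.0022 with NaHS and 0.24 with PPG against control. Foxm1, which switches on mitotic genes, gave 7.88, 7.64 and 8.20 in control, 7.69, 7.88 and 7.93 in CS+LPS, 7.60, 7.85 and 7.67 with NaHS, and 7.64, 7.49 and 7.92 with PPG. These overlapped throughout, with differences from control of -0.08, -0.20 and -0.22 at an SE of 0.17.

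**Figure D3:**
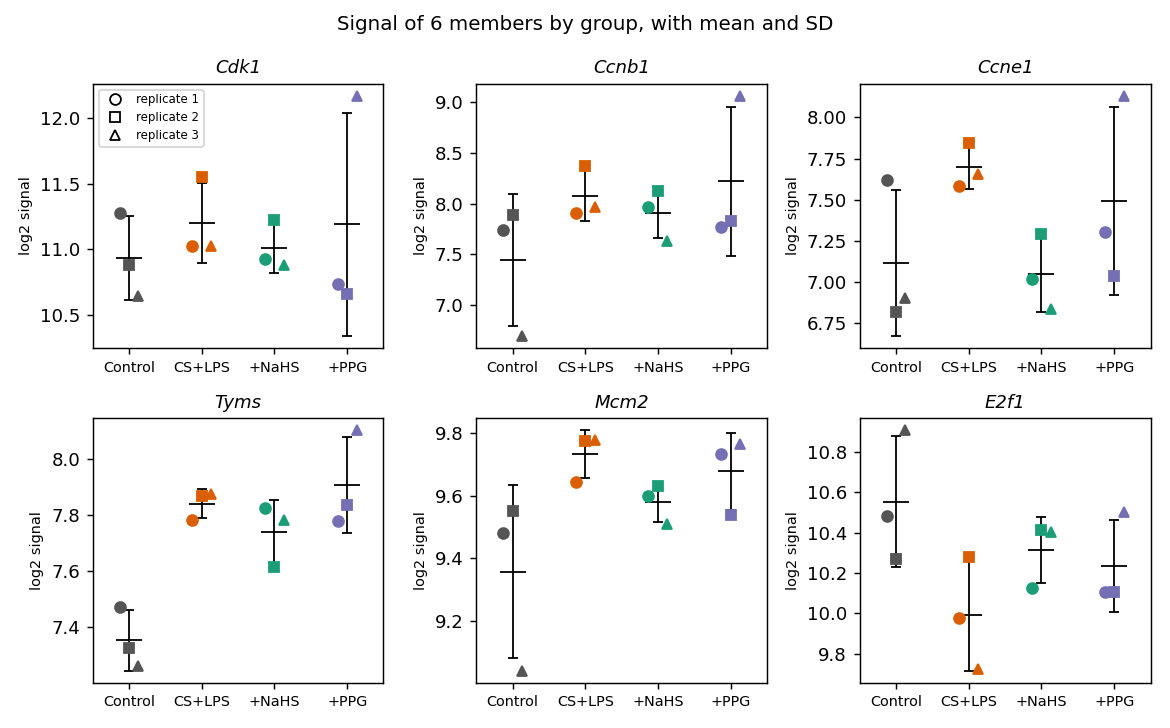
Log2 signal of Cdk1, Ccnb1, Ccne1, Tyms, Mcm2 and E2f1 in the 4 groups, with 1 symbol per replicate number and the mean and SD of the 3 rats in black; each panel has its own vertical range. Tyms is higher on all 9 exposed arrays than on the 3 control arrays, while for Cdk1 the groups overlap and CS+LPS+PPG replicate 3 is the highest at 12.17.

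Most of the tested members act in mitosis. Kif11, Kif20a and Kif23 are spindle kinesins, Bub1, Ttk, Plk1, Aurka and Aurkb are kinases of mitosis and its checkpoint, and Ube2c, Cdc20 and Pttg1 act at the start of anaphase. The spindle, kinetochore and cytokinesis group (8 tested members, with Cenpf, Tpx2, Prc1, Nusap1 and Kif2c) reached 0.74 on PPG replicate 3 and 0.36 on CS+LPS replicate 2. The anaphase group (4 members) reached 0.85 and 0.38 on the same arrays. The chromosomal passenger pair, Birc5 and the weakly measured Cdca8, spanned the most within CS+LPS, at -0.59, 0.48 and -0.86. On PPG replicate 3, Ttk stood 1.50 and Ube2c 1.45 above the mean of the other PPG arrays. Kif2c had the largest member difference from control, 0.86 ± 0.32 (SE) with PPG (unadjusted p = 0.022, limma adjusted p = 0.11). The chosen probe was weak, well above background on 10 of 12 arrays. The other Kif2c probe gave 0.12 (limma, unadjusted p = 0.63), and the probes correlated at r = 0.39 over 12 arrays.

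**Figure D4:**
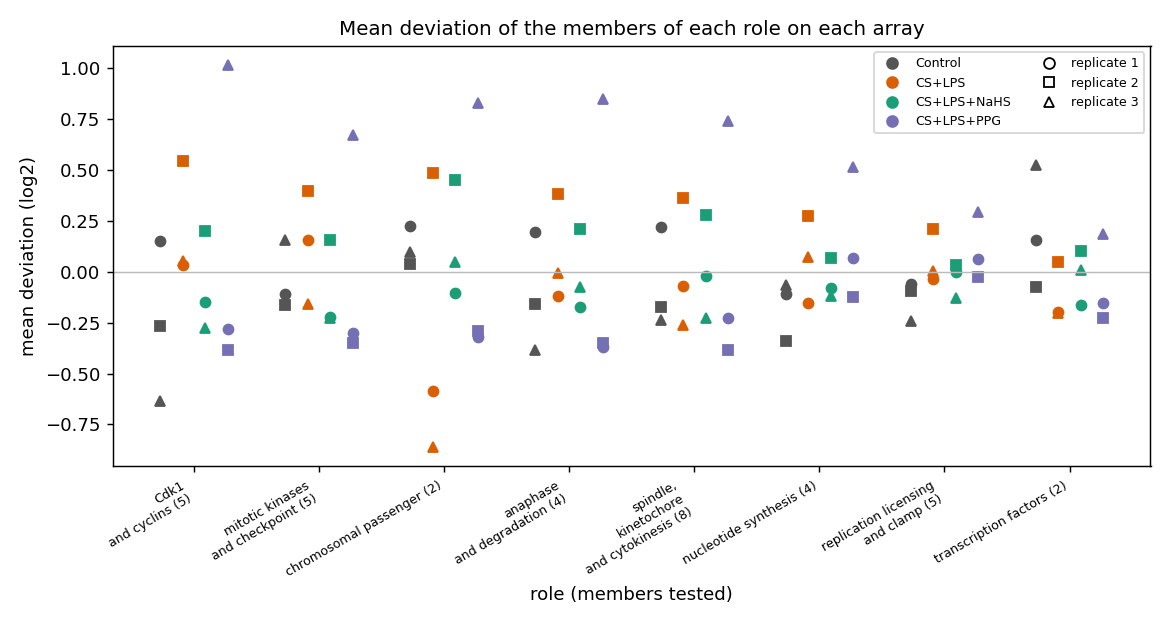
Mean deviation (log2) of the tested members of each role on each array; colours give the group, symbols the replicate number, and the number of members is in brackets. CS+LPS+PPG replicate 3 is the highest array for the cyclins with Cdk1 (1.01) and for every role shown except the transcription factors, where control replicate 3 is the highest (0.53).

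The members varied together over the arrays. Over 595 pairs the mean correlation was 0.48, against 0.01 for pairs of all tested probes, and 549 pairs were above 0. After the group means were removed it was 0.60, and without PPG replicate 3 and CS+LPS replicate 2 it was 0.19, so those 2 arrays carried much of it. Members closest to the mean of the others were Cdk1 (0.97), Cdca3 (0.97), Nusap1 (0.95), Ccna2 (0.93) and Bub1 (0.91). E2f1 (0.24), Aurkb (0.25), Mcm7 (0.35), Foxm1 (0.38), Mcm2 (0.40) and Tyms (0.42) were the least alike. Arrays share RNA quality and depth of signal, so the correlations are descriptions over 12 points. Of the 8 members with another tested probe, that probe of Mcm4 ran the other way (r = -0.29), while those of Ccna2, Cenpf, Prc1 and Rrm2 correlated at 0.90 to 0.95. Those of Mcm2 (0.67), E2f1 (0.57) and Kif2c (0.39) lay between.

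The 10 genes outside the list with the pattern most like the member mean, among 11111 symbols ranked over 12 arrays, were Cks2, Cep55, Kif22, Ube2t, Nuf2, Spc25, Knstrn, Mxd3, Kifc1 and Sapcd2, with r from 0.900 to 0.975. Cks2, the top gene, binds Cdk1, and Cep55 acts in the last step of cytokinesis. Cks2 gave 9.82, 9.64 and 9.45 in control, 9.77, 10.37 and 9.67 in CS+LPS, 9.67, 10.09 and 9.48 with NaHS, and 9.46, 9.60 and 10.83 with PPG, again with PPG replicate 3 on top. Without the 2 highest arrays its r was 0.87.

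Other genes of the cycle, taken from lists outside the 44 members, were read the same way. Of 23 tested replication genes, 2 passed an adjusted p under 0.05 in PPG against control, where 5.2% of all probes did, and both were higher. These were Prim1, the small subunit of primase, by 1.03 (limma, adjusted p = 0.032), and Gins1, a part of the helicase complex, by 1.09 (adjusted p = 0.040), each with its highest value on PPG replicate 3. Prim1 gave 9.81, 10.03 and 9.33 in control and 10.53, 10.66 and 11.07 with PPG, without overlap. The median over the 23 genes was 0.41 in that comparison and 0.22 in CS+LPS against control. Of 28 tested mitotic genes, 0 passed in each comparison. Their medians against control were 0.14 in CS+LPS, 0.05 with NaHS and 0.12 with PPG. At an unadjusted p under 0.05 in limma, 3 of them passed in PPG against control, where 29.6% of all probes did. Of 6 tested G1 cyclins and kinases, 0 passed an adjusted p under 0.05. At most 5.2% of all probes passed it in any of the comparisons, so these counts of 0 are near the background. Cdk4, which starts the cycle with cyclin D, was higher by 0.51 in CS+LPS (adjusted p = 0.083), 0.43 with NaHS (adjusted p = 0.20) and 0.50 with PPG (adjusted p = 0.064). Of 14 inhibitors and exit genes, Btg2, an antiproliferative factor, fell by 0.75 in PPG against control (adjusted p = 0.039), 1 of 14 against 5.2% of all probes, and no other passed in a comparison. Without PPG replicate 3 none of Prim1 (adjusted p = 0.11), Gins1 (0.12) and Btg2 (0.13) passed in limma.

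The mean of markers of red cell precursors was also highest on PPG replicate 3. Of 5 tested erythroid precursor markers, 4 were highest of all arrays there, and 1 was not. That array was the highest for 17.5% of all tested probes. The mean deviation of the 5 markers was -0.52, 0.27 and 1.05 on the 3 PPG arrays. Over the other groups this mean ranged from -0.49 to 0.25 in control, from -0.69 to 0.38 in CS+LPS and from -0.10 to 0.11 with NaHS. Alas2, which makes heme in red cell precursors, gave 14.39 on PPG replicate 3 against 11.95 to 13.94 elsewhere, and Slc4a1, the anion exchanger of red cells, gave 11.20 against 8.40 to 10.76. The mean of 5 T cell markers was -0.36, 0.76 and -0.05 on the CS+LPS arrays and 0.60, 0.45 and 0.54 on the PPG arrays, so it did not set PPG replicate 3 apart. The mean of 6 neutrophil markers was -0.16, 0.43 and 0.42 on the CS+LPS arrays and -0.05, 0.64 and 0.85 on the PPG arrays, and was highest of all on NaHS replicate 1 (0.90). These lists hold only markers that passed the filter, and the part of these markers in the member values was not tested. Lists of B cell, thymocyte, macrophage and fibroblast markers are not given here by array.

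Blocking the fit by slide turned CS+LPS against control into a comparison with control replicate 3, the only control on that slide. In it 6 members passed an adjusted p under 0.05: Ccnb1, Ccnb2, Tyms, Mcm2, Mcm6 and E2f1. With the same block 41.1% of all tested probes passed, so 6 of 35 was a lower share than that of the array as a whole. Tyms was higher by 0.58 (adjusted p = 0.018) and Mcm2 by 0.69 (adjusted p = 0.0044), and E2f1 was lower, at -0.91 (adjusted p = 0.014). Within slide 1 alone, which holds control replicates 1 and 2 with all NaHS and PPG arrays, 0 members passed an adjusted p in any of the 3 comparisons it allows. The share of all probes that passed within slide 1 is not given, so this 0 has no background beside it. Tyms was higher there by 0.51 in PPG against control (limma, adjusted p = 0.069).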

How the data were processed

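Lung RNA of 12 rats was measured, and groups were taken from the sample labels. The authors deposited, per array, Feature Extraction 10.7.3.1 output, whose processed signal is a linear intensity with the background already removed. The authors also deposited 5 lists of differentially expressed probes with fold changes and p-values, which were not used.

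Outlier spots (446 to 704 per array) were dropped where other spots of the probe remained, and 35 probe values rested on outlier spots alone. The log2 intensity was centred on the 75th percentile of its array, and all arrays were shifted by the mean percentile. Spots of a probe were averaged. A probe was kept if every array of 1 group or more had it well above background. RefSeq (GRCr8) named 17514 of 30367 probes. limma 3.58.1 in R 4.3.3 was fitted to all 12 arrays, with two-sided p and Benjamini-Hochberg adjustment over all 21239 probes, and was tested on simulated data. The number of arrays limits the precision. Rats of a group were taken as separate animals.

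Values per array are given for members called by either rule (fold of at least 2 with p under 0.05, or adjusted p under 0.05) and for the anchors Cdk1, Ccnb1, Ccne1, Pcna, Mcm2, E2f1 and Foxm1 (Mki67 and Top2a had no matched probe). Other members named were chosen after their values were seen. The members and lists were chosen with earlier results of these data known. Replicate numbers were checked for pairing, and same-numbered arrays of 2 groups correlated in their deviations from the group means at -0.31 to 0.14, so they were not treated as pairs.

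Alternatives were quantile normalization, normexp background correction (offset 50, on median signals), a 75th percentile taken over probes detected on every array, keeping outlier spots, a block for slide or for replicate number, slide 1 alone, 3 other filters, the compared groups alone, the methods' t-test, a mean over all probes of a gene, leaving out each array, and, chosen after seeing the data, leaving out control replicate 3 and PPG replicate 3 together.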

Additional observations from a re-analysis of the deposited data

How the results depend on the processing

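The median difference of the members moved by less than the spread between rats (0.31) under all alternatives that keep 12 arrays. It moved further only without PPG replicate 3, to -0.21 for PPG against control and to 0.21 for NaHS against PPG, and, without control replicate 3 as well, to -0.19 and 0.21. When each array was left out in turn, this median ranged from -0.21 to 0.30 for PPG against control and from -0.28 to 0.21 for NaHS against PPG.

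By fold and p, 0 members were called in each comparison. In CS+LPS against control, the slide as a block gave 2 (Ccnb1 and Ccnb2), and leaving out each array gave 0 to 1. In PPG against control, quantile normalization gave 1 (Kif2c), and leaving out each array gave 0 to 1. In NaHS against CS+LPS the slide block gave 1 (Ccnb1), each of the 2 looser filters (at least 1 array, no filter) gave 1 (Hmmr), and leaving out each array gave 0 to 1. In PPG against CS+LPS the slide block gave 1 (Ccnb2), and the same 2 filters gave 1 (Hmmr). No share of all probes is given for these alternatives, so their counts are no result about the members.

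By adjusted p, the slide block gave 6 in CS+LPS against control and 1 (Mcm2) in NaHS against CS+LPS. With that block 41.1% of all probes passed in CS+LPS against control. No such share is given for NaHS against CS+LPS, so the call of Mcm2 has no background beside it. The single call, Tyms in PPG against control, was lost (count 0) with the slide block, with slide 1 alone, with the replicate block (adjusted p = 0.082), with both looser filters, with the compared groups alone, with the methods' t-test and without control replicate 3 and PPG replicate 3 together. Leaving out each array gave 0 to 1, with 1 only without CS+LPS replicate 2, and Tyms itself stayed higher, at 0.46 to 0.62, with adjusted p from 0.050 to 0.13. Tyms had the same direction in all 26 alternatives. The replicate block changed no other call. Slide 1 alone gives no value for comparisons with CS+LPS, and the cause of the changes was not tested. Of the 35 members, 32 were well above background on all 12 arrays, and the other 3 (Cdca8, Kif2c and Tpx2) were measured less surely.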
